A study of Mus musculus with 8 samples.

Results

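Gad1, Gad2, Abat, Gabra2, Gabra4, Gabrb1 and Gabrb2 are 7 mouse genes that make, break down or sense the inhibitory transmitter GABA. Every probe set whose only gene symbol in the array annotation was one of these names was taken, which gave 22 probe sets for the 7 genes, out of 34945 probe sets for 18193 genes on the array. The genes were picked with the difference between the groups below in view, so that difference is described for them and carries no test. Total RNA came from choroid plexus of the fourth ventricle at embryonic day 13, with 4 arrays from Otx2 k.o. embryos and 4 from wildtype littermates, all on a mixed background with sex not determined. The Otx2 deficient strain is given without the deleted part of the gene, a driver or an agent, no treatment was applied, and the labels do not say how many embryos made up a sample. Where nothing says that replicates are separate litters, a p-value measures the spread between these arrays.

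GABA is made from glutamate by a pair of glutamate decarboxylases. GAD67, from Gad1, is spread through the cell and supplies most of the transmitter, while GAD65, from Gad2, sits mainly at nerve terminals. GABA transaminase, from Abat, removes GABA in mitochondria. The GABA-A receptor is a chloride channel built of subunits around a pore, usually alpha and beta subunits, which together form the GABA site, with a gamma or delta subunit. In the embryonic brain GABA also acts on immature cells before synapses form. The choroid plexus is a sheet of secretory epithelium over vascular stroma, next to neural tissue of the hindbrain roof.

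The arrays' general state bears on all values. Otx2 read 12.38, 12.46, 12.44 and 12.48 log2 units in knockout-labelled replicates 1 to 4 and 12.00, 12.05, 11.97 and 11.85 in wildtype replicates 1 to 4. The gene named by the genotype was therefore higher where it was labelled absent (difference 0.47, limma adjusted p = 0.000648), so these arrays carry the name knockout-labelled below. Whether this probe set lies in the deleted part is not given by the labels, and one outside it would check nothing. Markers of choroid plexus epithelium had list means of 9.71 to 9.93 in the knockout-labelled and 10.72 to 10.86 in the wildtype arrays. Of the 14 genes measured 12 fell, among them Col8a1 by 2.11, Tmem72 by 1.62 and Aqp1 by 1.01, and the 1 that rose was Otx2 itself. Without Otx2 the list means were 9.50 to 9.74 and 10.62 to 10.78. Of 11 stroma and meninges genes 10 rose, with differences of 2.26 for Fmod, 0.53 for Lum and 0.60 for Tbx18. In whole tissue, fewer cells of a type and less RNA per cell cannot be told apart. The mean of 14 pan-neuronal genes, 0 of which passed in the limma test, ran from 7.60 to 9.06 in the knockout-labelled and from 7.29 to 8.79 in the wildtype arrays. It was highest in knockout-labelled replicate 2 and wildtype replicate 1. Of 13 genes of neural progenitors and glia 3 rose in the knockout-labelled arrays (Nes 0.65, Nkx6-1 0.83 and Slc1a3 0.34), 0 fell and 10 did not pass. Of 14 genes of excitatory neurons 1 rose, which was Reln (1.67, limma adjusted p = 0.000443), 0 fell and 13 did not pass. Over all genes 7.84% rose and 11.7% fell (limma, adjusted p under 0.05). Whether these lists differ from those shares was not tested. The list of progenitors and glia had means of 7.52 to 7.95 in the knockout-labelled and 7.23 to 7.66 in the wildtype arrays. That of excitatory neurons had means of 6.35 to 7.01 and 6.00 to 7.04, so both lists overlapped between the groups. Unless said otherwise, a gene is given by its brightest probe set, and levels are log2 units after RMA, an array normalization. Levels of different probe sets cannot be set against each other, and a dim level cannot be separated from background.

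**Figure D1:**
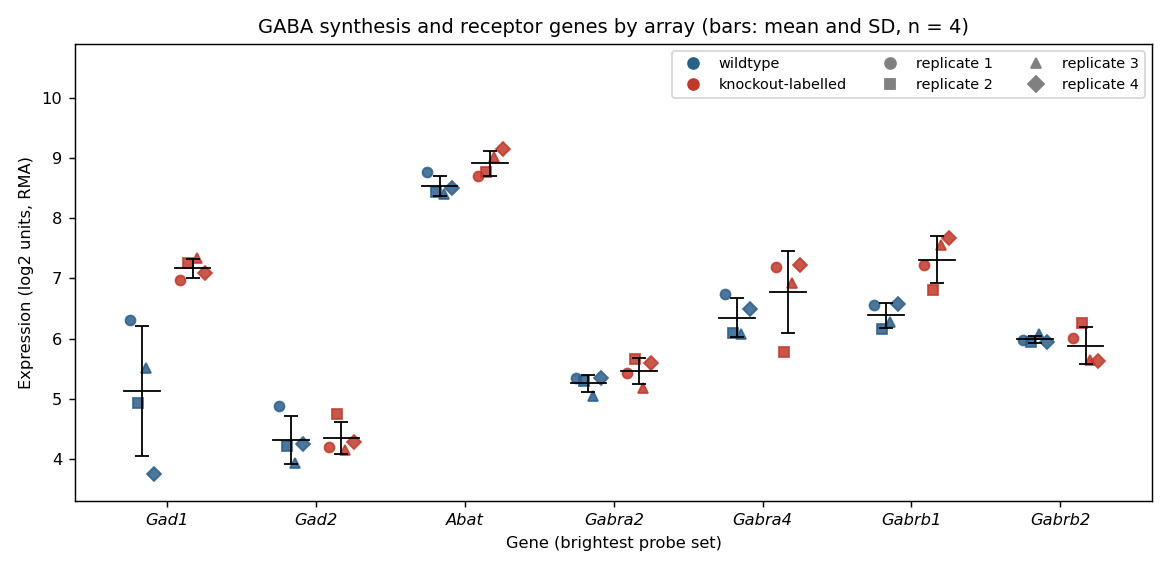
Expression of the brightest probe set of each of the 7 genes (log2 units) in the 4 wildtype (blue) and 4 knockout-labelled arrays (red). Symbols mark replicate numbers, and lines and bars give the mean and SD. In Gad1 and Gabrb1 every red point lies above every blue one, and in the other 5 genes the groups overlap.

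Gad1, which encodes the decarboxylase GAD67, had the largest difference of the 7 genes. It read 6.98, 7.25, 7.34 and 7.09 log2 units in knockout-labelled replicates 1 to 4 and 6.31, 4.93, 5.51 and 3.74 in wildtype replicates 1 to 4. The knockout-labelled arrays were close together and all above the wildtype arrays, which were spread widely, with replicate 1 high and replicate 4 low. The means were 7.17 ± 0.16 and 5.12 ± 1.08 (SD, n = 4 each), a log2 difference of 2.04 with an SE of 0.55, or 4.13-fold. The difference was 1.58 without wildtype replicate 4 and 2.44 without wildtype replicate 1. A second Gad1 probe set was dimmer and read 4.82, 5.11, 4.91 and 4.97 in the knockout-labelled and 4.91, 4.68, 4.71 and 4.44 in the wildtype arrays. Its groups overlapped, with a difference of 0.27 ± 0.12 (SE), so the 2 probe sets of this gene gave very different sizes. Both were annotated with the same transcript record.

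Gad2, which encodes the terminal decarboxylase GAD65, was dim in every array. Its brighter probe set read 4.20, 4.74, 4.15 and 4.28 in the knockout-labelled and 4.88, 4.21, 3.93 and 4.24 in the wildtype arrays. Knockout-labelled replicate 2 and wildtype replicate 1 were the high arrays, and the groups overlapped. The difference was 0.03 with an SE of 0.24, and it was 0.03 again in the second probe set (SE 0.16). The sign of the first value depended on single arrays, with -0.11 without knockout-labelled replicate 2 and 0.21 without wildtype replicate 1. In neither probe set were the groups separate.

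Slc32a1, the vesicular transporter that loads GABA and glycine into synaptic vesicles, read 6.05, 5.92, 6.29 and 6.11 in the knockout-labelled arrays and 5.89, 6.04, 6.22 and 6.33 in the wildtype arrays. Its groups overlapped throughout (difference -0.03, SE 0.11, limma adjusted p = 0.903). Of 13 measured transcription factors of inhibitory neurons, among them Dlx1, Dlx2, Ptf1a, Lhx1 and Lhx5, 0 passed in either direction, with a median difference of 0.03. The means of that list ran from 5.47 to 5.78 in the knockout-labelled and from 5.46 to 5.71 in the wildtype arrays. These ranges overlapped, and the list holds dim genes such as Dlx1, with group means of 3.64 and 3.50.

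Within each group, Gad1 and Gad2 were set against the pan-neuronal list, using deviations of each array from its group mean. These deviations leave out the difference between the group means. Whether the choice of the genes drew on the spread within groups is not known. For Gad2 Pearson's r was 0.83 and Spearman's rho 0.60 over 8 arrays (exact permutation within groups, two-sided, p = 0.0312 and 0.177, adjusted p = 0.291 and 0.551 over 28 relations). Without knockout-labelled replicate 2 and wildtype replicate 1, the arrays farthest from the median on the neuron axis, r fell to 0.30, so the relation rests on them. For Gad1 r was 0.53 and rho 0.26 (exact permutation p = 0.314 and 0.528, adjusted p = 0.733 and 1.0), and r was 0.21 without the same pair of arrays. In the knockout-labelled and wildtype arrays taken apart, r with the neuron list was 0.0 and 0.71 for Gad1, and 0.96 and 0.76 for Gad2. A neuron list covariate was added after seeing the data. With it the group differences were 1.91 for Gad1, -0.07 for Gad2 and 0.97 for Gabrb1. In the arrays in which Gad1 and Gabrb1 were high, 3 of 13 progenitor and glia genes rose and 0 fell. Of 14 excitatory neuron genes 1 rose and 0 fell. Over all genes 7.84% rose and 11.7% fell (limma, adjusted p under 0.05), and the means of both lists overlapped between the groups. The part of neural tissue in the member differences is described by these values only and was not tested.

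**Figure D2:**
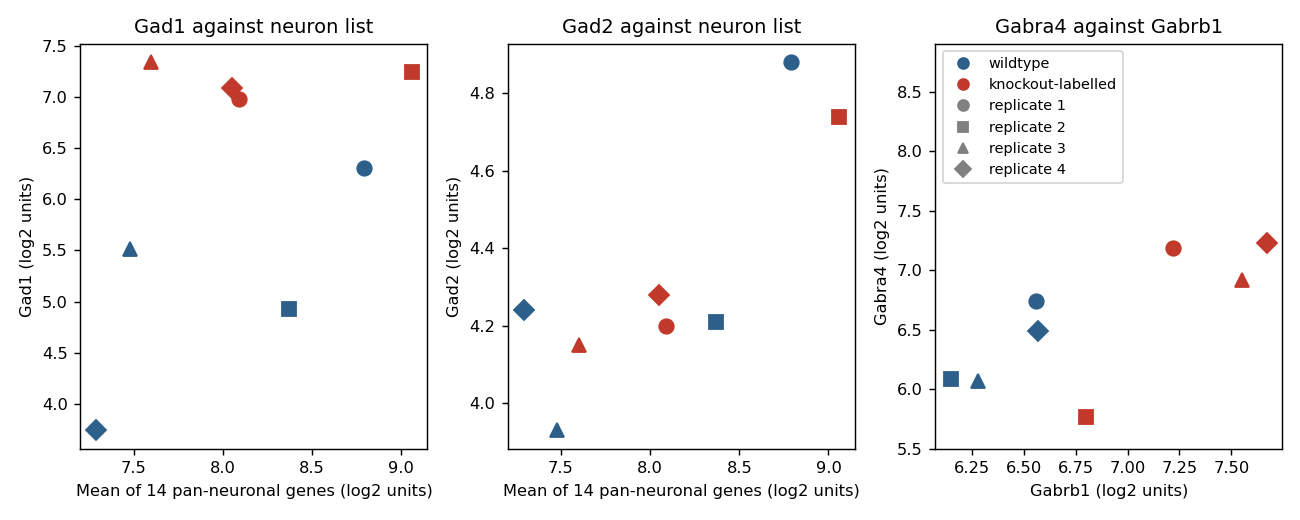
Left and middle: Gad1 and Gad2 (log2 units) against the mean of 14 pan-neuronal genes (log2 units). Right: Gabra4 against Gabrb1 (log2 units). Each point is 1 array, blue for wildtype and red for knockout-labelled, with symbols for replicate numbers. The red Gad1 points stay between 6.98 and 7.34 over neuron means of 7.60 to 9.06. The blue ones run from 3.74 to 6.31 over neuron means of 7.29 to 8.79. The 2 highest Gad2 points are the 2 arrays with the highest neuron mean. In the right panel knockout-labelled replicate 2 is the low red point.

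Abat, which encodes the enzyme that degrades GABA, read 8.71, 8.77, 9.02 and 9.16 in the knockout-labelled arrays and 8.77, 8.44, 8.41 and 8.51 in the wildtype arrays. Wildtype replicate 1 was as high as knockout-labelled replicates 1 and 2, and the other wildtype arrays were lower. The difference was 0.38 with an SE of 0.13, or 1.30-fold. A dim second probe set gave -0.01 (SE 0.15), with groups that overlapped. Aldh5a1, whose enzyme takes the next step after Abat, gave -0.11 and did not pass (limma adjusted p = 0.385).

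Gabra2 and Gabra4 encode alpha subunits. Gabra2 read 5.42, 5.66, 5.17 and 5.59 in the knockout-labelled and 5.35, 5.29, 5.04 and 5.34 in the wildtype arrays, a difference of 0.21 with an SE of 0.13. Replicate 3 was the lowest array of both groups. The difference was 0.13 without wildtype replicate 3, 0.14 without knockout-labelled replicate 2 and 0.30 without knockout-labelled replicate 3. The other 4 probe sets of Gabra2 all differed in the same direction, by 0.09 to 0.36. In only 1 of the 5, with 4.33, 4.45, 4.41 and 4.74 against 4.23, 4.24, 4.02 and 4.10, were the groups separate. That probe set was dim, with a mean level of 4.31.

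Gabra4, whose subunit is found in receptors outside synapses, read 7.19, 5.77, 6.92 and 7.23 in the knockout-labelled arrays and 6.74, 6.09, 6.07 and 6.49 in the wildtype arrays. Knockout-labelled replicate 2 was the lowest of all 8 arrays, and the other 3 of its group were the highest. The difference was 0.43 with an SE of 0.38, and it was 0.77 without knockout-labelled replicate 2 and 0.28 without knockout-labelled replicate 4. The second probe set gave 0.28 (SE 0.24), with groups that overlapped.

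Gabrb1 and Gabrb2 encode beta subunits, and their values differed from each other in sign. Gabrb1 read 7.22, 6.80, 7.55 and 7.67 in the knockout-labelled arrays and 6.56, 6.15, 6.28 and 6.57 in the wildtype arrays. Every knockout-labelled array was above every wildtype array, replicate 2 being the lowest of each group. The difference was 0.92 with an SE of 0.22, or 1.89-fold, and 0.80 to 1.09 when any 1 array was left out. Further probe sets gave 0.49 (SE 0.29, overlapping, mean level 4.76), 0.42 (SE 0.07, separate, mean level 2.86) and -0.01 (SE 0.11, overlapping, mean level 2.48). The last pair, the separate one included, lay under 4.33, the lower quartile of all values, and cannot be told from background.

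Gabrb2 read 6.01, 6.26, 5.64 and 5.62 in the knockout-labelled arrays and 5.97, 5.95, 6.08 and 5.94 in the wildtype arrays. Knockout-labelled replicate 2 was the highest of the 8 arrays, and knockout-labelled replicates 3 and 4 were the lowest. The difference was -0.11 with an SE of 0.16, running from -0.23 without knockout-labelled replicate 2 to -0.02 without knockout-labelled replicate 3 or 4. Its other 4 probe sets gave -0.16 to 0.01, and in all 5 the groups overlapped.

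**Figure D3:**
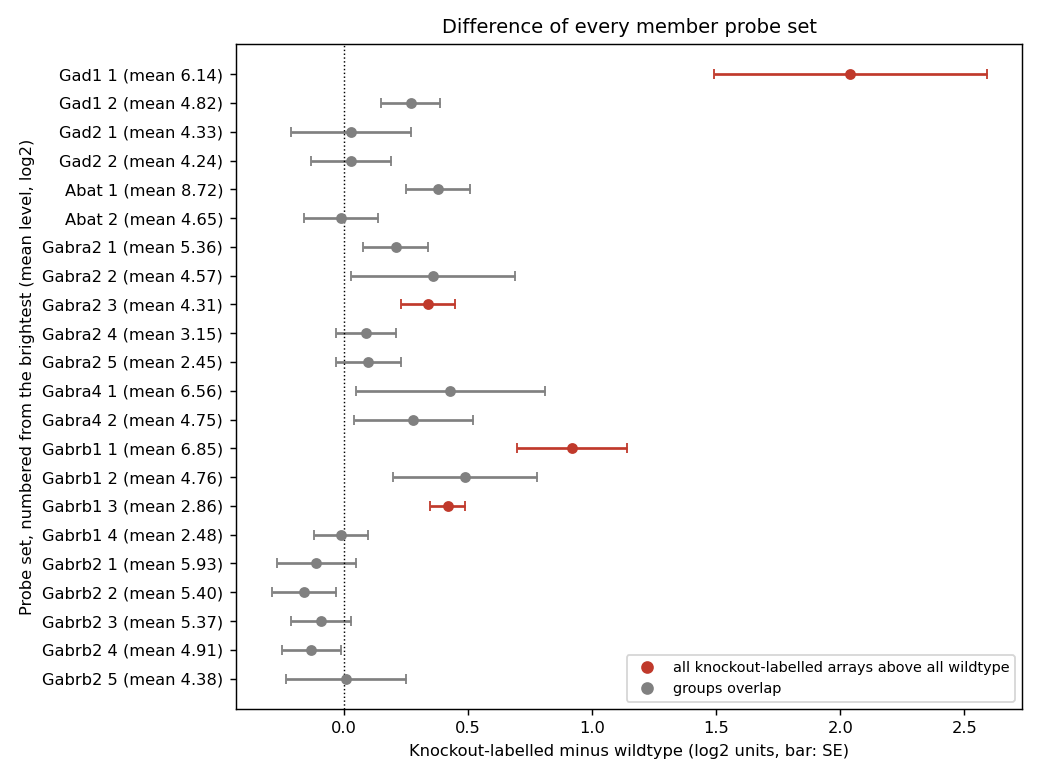
Difference between knockout-labelled and wildtype arrays (log2 units) for all 22 probe sets, numbered from the brightest of each gene with their mean level, and bars of 1 SE. Red points mark the 4 probe sets whose groups are separate. The first probe set of Gad1 is at 2.04 and its second at 0.27, and the points of Gabrb2 lie at or left of 0.01.

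Over the 7 genes, 6 differences were positive and 1 negative, with a median of 0.38 beside 0.00 for all genes. Knockout-labelled arrays lay all above wildtype arrays in 2 of the 7 genes, against a background of 9.98% of all genes, and in 4 of 22 probe sets, against 8.52% of all probe sets. In 0 of the 22 were they all below, where the background was 12.6%. In the limma fit 19.6% of all genes were called in either direction. Because the genes were picked on this contrast, nothing is read from these shares. Dim levels were common, with 6 of the 22 probe sets under 4.33, the lower quartile of all values, and 1 of the 7 genes at or above the median level of all genes (7.29). Among these dim probe sets were the separate ones of Gabra2 (mean level 4.31) and the dimmer separate one of Gabrb1 (mean level 2.86). No filter on low values was applied, so all 7 were kept.

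Of the members, 3 lie in the same gene cluster on mouse chromosome 5. In the reference gene table the order is Gabrg1, Gabra2, Cox7b2, Gabra4 and Gabrb1, where Gabrg1 encodes a gamma subunit and Cox7b2 a cytochrome oxidase subunit. Gabra4 and Gabrb1 are read in opposite directions from starts 387 bases apart, with their first parts overlapping, so the stretch before each start lies inside the other gene. The 250 bases before the starts, from RefSeq on GRCm38.p6, are shown for this pair because their levels were compared within groups below. Neither stretch holds the motif TAATCC, the core recognised by Otx-type homeodomains, so no letter is in capitals.
Gabra4, chr5:71658309-71658558, minus strand: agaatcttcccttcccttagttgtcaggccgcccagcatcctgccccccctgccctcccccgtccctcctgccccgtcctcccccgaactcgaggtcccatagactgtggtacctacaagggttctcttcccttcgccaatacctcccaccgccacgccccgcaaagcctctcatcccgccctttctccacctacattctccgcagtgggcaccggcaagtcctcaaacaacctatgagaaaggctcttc
Gabrb1, chr5:71657671-71657920, plus strand: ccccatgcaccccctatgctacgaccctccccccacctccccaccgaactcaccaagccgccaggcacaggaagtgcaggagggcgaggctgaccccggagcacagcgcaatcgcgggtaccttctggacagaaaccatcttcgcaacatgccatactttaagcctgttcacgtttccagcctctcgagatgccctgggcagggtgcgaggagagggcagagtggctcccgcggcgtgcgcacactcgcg

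The relations below describe these 8 arrays, and 0 of them passed after adjustment. How often other pairs of genes reach such values was not tested. The deviations of Gabra4 and Gabrb1 within the groups ran in the same direction. Pearson's r of their deviations from the group means was 0.85 and Spearman's rho 0.76 over 8 arrays (exact permutation within groups, p = 0.0208 and 0.0538, adjusted p = 0.291 and 0.519 over 28 relations). Without knockout-labelled replicates 2 and 4, the farthest on the Gabrb1 axis, r was 0.57. Gabra2, from the same cluster, gave r = -0.16 and rho = 0.00 against Gabra4 (exact permutation p = 0.8 and 1.0, adjusted p = 0.933 and 1.0). Against Gabrb1 it gave r = -0.21 and rho = -0.12 (exact permutation p = 0.731 and 0.819, adjusted p = 0.890 and 1.0). Its deviations ran with those of Gad2 instead, with r = 0.67 and rho = 0.90 (exact permutation p = 0.0642 and 0.00347, adjusted p = 0.360 and 0.0972), and r was 0.56 without replicate 3 of each group. Gabrb1 and Gabrb2 deviated in opposite directions (r = -0.88, rho = -0.83, exact permutation p = 0.0295 and 0.0556, adjusted p = 0.291 and 0.519), with r of -0.62 without knockout-labelled replicates 2 and 4. These reorderings shuffle each group by itself, while same-numbered arrays tended to deviate together over all genes, so the unadjusted p-values may be too small. Of the 28 relations, 3 had an unadjusted p of Pearson's r under 0.05 and 0 an adjusted one (exact permutation tests).

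The TAATCC core, searched on both strands, was found in the 250 bases before the start in 2 of 9 member windows, which covered 6 of the 7 genes (Abat has no entry). Of all RefSeq promoter windows of that length, 6.25% held it. The 2 windows, those of Gad1 and Gabra2, are shown with the match in capitals, which in Gad1 is the core read from the opposite strand (GGATTA). The match began 203 bases before the start in Gad1 and 139 in Gabra2. A match of 6 letters is a description of the sequence and says nothing of binding.
Gad1, chr2:70561879-70562128, plus strand: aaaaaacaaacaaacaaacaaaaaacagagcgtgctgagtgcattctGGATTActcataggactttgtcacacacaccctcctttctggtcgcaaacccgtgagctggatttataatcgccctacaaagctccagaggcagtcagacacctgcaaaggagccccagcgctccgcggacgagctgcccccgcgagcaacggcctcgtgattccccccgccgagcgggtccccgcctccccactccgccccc
Gabra2, chr5:71095850-71096099, minus strand: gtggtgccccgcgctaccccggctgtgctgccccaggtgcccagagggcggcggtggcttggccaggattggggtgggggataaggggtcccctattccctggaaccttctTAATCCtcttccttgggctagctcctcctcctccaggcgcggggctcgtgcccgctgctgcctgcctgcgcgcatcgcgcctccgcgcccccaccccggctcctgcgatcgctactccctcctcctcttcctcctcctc

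The other genes of GABA and glycine signalling were tested as 58 measured genes in 7 lists, and they were lower more often than higher. In the knockout-labelled arrays 2 rose and 12 fell, or 3.45% and 20.7%, where 7.84% of all genes rose and 11.7% fell (limma, adjusted p under 0.05). Their median difference was -0.02, beside 0.00 for all genes. The 2 that rose were Nlgn2 and Clcn2. Without knockout-labelled replicate 4 or wildtype replicate 3 only Nlgn2 rose, as the adjusted p of Clcn2 was then 0.0539 and 0.0627.

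**Figure D4:**
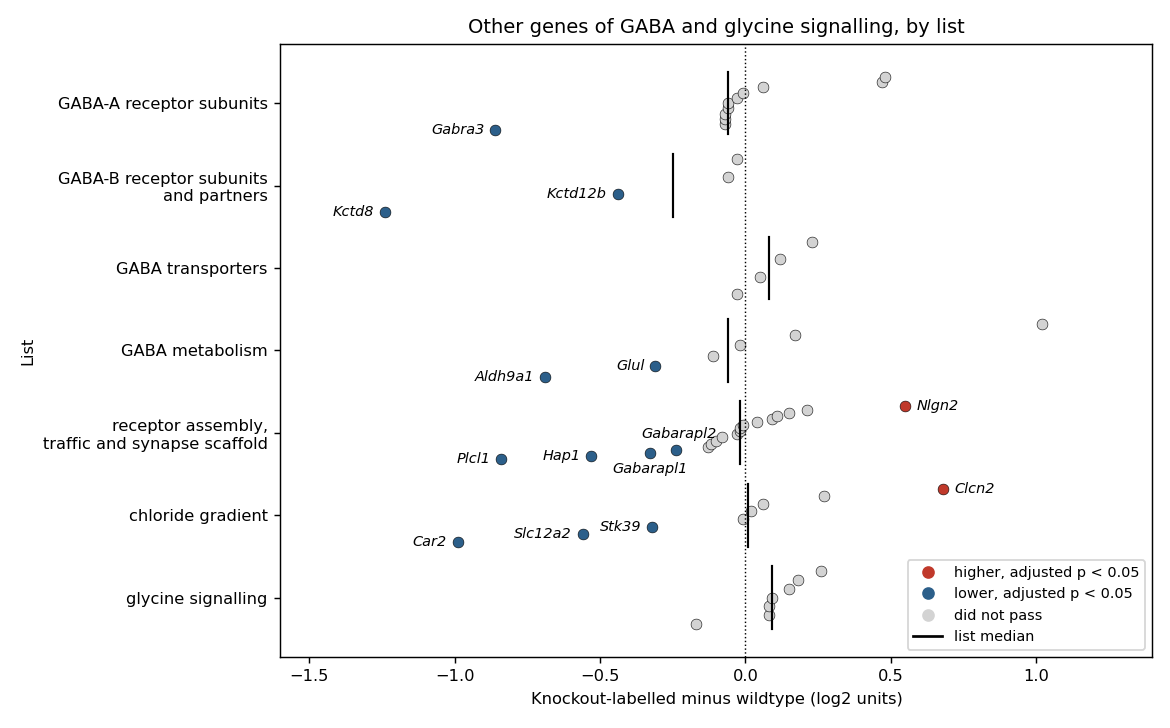
Difference between knockout-labelled and wildtype arrays (log2 units) of 58 other genes of GABA and glycine signalling in 7 lists. Red and blue points passed the limma test as higher or lower, grey points did not, and the black line is the list median. The 12 blue points are spread over 5 lists, and the GABA transporters and glycine genes are all grey.

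Among 11 other GABA-A subunits 1 fell and 0 rose, with a median of -0.06. Gabra3, an alpha subunit prominent in embryonic brain, read 5.10, 4.85, 4.78 and 5.17 in the knockout-labelled and 6.33, 5.80, 5.63 and 5.57 in the wildtype arrays. All knockout-labelled arrays lay below all wildtype arrays (difference -0.86, SE 0.16, limma adjusted p = 0.00543). Its dim second probe set gave -0.16 and overlapped. Gabrg1, the gamma subunit gene at the edge of the chromosome 5 cluster, read 6.44, 6.64, 7.36 and 7.26 against 6.22, 6.20, 6.66 and 6.73. Replicates 3 and 4 were the high arrays of both groups. The difference of 0.47 (SE 0.22) did not pass (limma adjusted p = 0.174). With the replicate number as a block it passed (limma adjusted p = 0.0127), but that weak pairing was taken from the values, not the labels. It also passed with the neuron list mean as a covariate, a setting added after seeing the data (0.56, limma adjusted p = 0.0441). Gabrp, a subunit known from epithelia outside the brain, read 7.29, 7.61, 6.69 and 7.19 against 6.64, 6.61, 6.66 and 6.95 and did not pass (0.48, limma adjusted p = 0.0816), but passed without knockout-labelled replicate 3 (0.65, adjusted p = 0.00755).

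Of 4 measured genes for GABA-B receptor subunits and their partners 2 fell and 0 rose. Kctd8, an auxiliary subunit, read 6.31, 5.92, 6.14 and 6.34 in the knockout-labelled and 7.02, 7.35, 7.76 and 7.54 in the wildtype arrays. The groups were far apart, by -1.24 (SE 0.15, limma adjusted p = 0.000471), and a second probe set gave -0.67. Kctd12b, a relative of the auxiliary subunits, fell by 0.44 (SE 0.06, limma adjusted p = 0.000656). Its second probe set gave -0.8 and overlapped. Gabbr1, the subunit that binds GABA, gave -0.03 (SE 0.08, limma adjusted p = 0.825).

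Among 4 GABA transporter genes 0 passed (limma). Slc6a11, a transporter of glial cells, had the smallest p, with 5.11, 5.89, 5.75 and 5.41 against 5.38, 4.95, 5.53 and 5.39 (difference 0.23, limma adjusted p = 0.444). Slc6a13, a transporter known from the meninges and choroid plexus, ranged from 6.09 in knockout-labelled replicate 2 to 7.95 in replicate 3 and from 6.84 to 7.56 in the wildtype arrays (difference 0.05, SE 0.35). Among 6 metabolic genes 2 fell and 0 rose. Aldh9a1, which can make GABA from aminobutyraldehyde, read 10.02, 9.82, 9.90 and 9.87 against 10.67, 10.59, 10.58 and 10.54, with separate groups (difference -0.69, SE 0.06, limma adjusted p = 8.89e-05). Glul, the glutamine synthetase, fell by 0.31 (limma adjusted p = 0.0118), and second probe sets gave -0.53 for Aldh9a1 and -0.46 for Glul. Aldh1a1, an aldehyde dehydrogenase of retinoic acid synthesis that can also yield GABA, read 3.80, 3.80, 7.02 and 3.51 against 3.41, 4.00, 3.34 and 3.28, so that its difference of 1.02 rests on knockout-labelled replicate 3 (limma adjusted p = 0.357).

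Of 18 genes for receptor assembly, traffic and the synapse scaffold 1 rose and 4 fell. Plcl1, a phospholipase-like protein that binds the receptor and takes part in its traffic, read 5.35, 5.28, 5.31 and 5.36 in the knockout-labelled and 6.20, 6.13, 6.18 and 6.13 in the wildtype arrays. Each group was tight, and the difference was -0.84 (SE 0.05, limma adjusted p = 1.54e-05), with -0.27 in a dim second probe set. Hap1, a huntingtin partner in vesicle transport, fell by 0.53 (limma adjusted p = 0.000372). Gabarapl1 and Gabarapl2, relatives of the receptor-associated protein GABARAP that also act in autophagy, fell by 0.33 and 0.24 (limma adjusted p = 0.00317 and 0.0296). Their second probe sets gave -0.51 and -0.39, with separate groups. Gabarapl2 no longer passed when any of 5 arrays was left out, namely knockout-labelled replicate 1 (adjusted p = 0.0787), 3 (0.0702) or 4 (0.0506) or wildtype replicate 1 (0.0703) or 4 (0.0849). Nlgn2, the adhesion protein of inhibitory synapses, read 9.44, 9.55, 9.51 and 9.58 against 9.17, 9.04, 8.82 and 8.85 and rose by 0.55 (SE 0.09, limma adjusted p = 0.00175). Its second probe set gave 0.04 and overlapped. Gphn, the gephyrin scaffold, gave -0.08 and did not pass (limma adjusted p = 0.385).

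The chloride gradient decides which way current flows through the receptor, and 1 of its 8 genes rose and 3 fell. Slc12a2, the sodium-potassium-chloride cotransporter NKCC1 that loads chloride into cells, read 11.70, 11.72, 11.81 and 11.76 in the knockout-labelled and 12.38, 12.38, 12.24 and 12.23 in the wildtype arrays. The groups were separate in all 3 of its probe sets, by -0.56 (SE 0.06, limma adjusted p = 0.000267), -0.66 and -0.49. Car2, carbonic anhydrase 2, fell by 0.99 (limma adjusted p = 4.03e-05), and Stk39, a kinase that activates the cotransporter, by 0.32 (limma adjusted p = 0.00636). A second Stk39 probe set gave -0.25 with separate groups, and the dimmest of its 3 probe sets (mean level 4.49) gave 0.12 and overlapped. The Stk39 call was lost with the mean of its probe sets (-0.15, limma adjusted p = 0.177). Clcn2, a chloride channel, read 7.05, 6.81, 7.60 and 7.51 against 6.59, 6.62, 6.34 and 6.70, a rise of 0.68 (limma adjusted p = 0.0198). Slc12a5, the neuronal chloride exporter KCC2, gave 0.27 and did not pass (limma adjusted p = 0.0940), but passed with the mean of its probe sets (0.26, adjusted p = 0.0109). Slc12a2 and Car2 are also known from choroid plexus epithelium, whose marker list was on average 0.95 lower (1.06 without Otx2) in the same arrays. The part of the epithelium in these values was not tested.

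Glycine, the other fast inhibitory transmitter of the hindbrain, had 7 measured genes, of which 0 passed (limma). The smallest p was that of the receptor subunit Glra1, with 4.15, 4.00, 3.96 and 4.17 against 4.31, 4.20, 4.21 and 4.25 (difference -0.17, limma adjusted p = 0.116). The beta subunit gene Glrb gave 0.15 and the neuronal glycine transporter gene Slc6a5 gave 0.26, and neither passed.

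Genes with a profile most like each member were taken as the 3 with the highest Pearson r over all 8 arrays, among 8919 genes at or above the median level, after members and clone or locus names were left out. These values include the difference between the groups and are a description. Gad1 was closest to Runx1t1, Dzip1 and Smim10l1 (r = 0.97 each). Runx1t1, a transcriptional corepressor, read 8.63, 8.69, 8.64 and 8.61 against 8.31, 7.72, 7.91 and 7.61, the same tight knockout-labelled group and spread wildtype group with replicate 1 high and replicate 4 low. Gabrb1 was closest to Nfic, Sfswap and Atad3a (r = 0.99 each), and Gabra4 to Taf1, Kars and Mical1 (r = 0.97 to 0.98). Abat was closest to C9orf72, Rnf126 and Capza2 (0.96 to 0.98), Gabra2 to Ing1, Fbxl19 and Sart3 (0.95 to 0.97), Gad2 to St6gal1, Vps4a and Acaca (0.94 to 0.95) and Gabrb2 to Pomt2, Diras1 and Gpank1 (0.92 to 0.93).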

How the data were processed

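Arrays of 4 knockout-labelled and 4 wildtype choroid plexus samples were compared. Each probe set has a log2 intensity that the authors summarised by RMA, as named in the submitters' processing notes. Neither its software nor its version is given in the sources used here. RMA equalises the arrays, whose medians ran from 5.85 to 5.90, so a change in total RNA is not visible. Detection calls are not analysed here, no sequencing depth applies, and the number of arrays limits the precision.

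Of 45101 probe sets, 34945 had 1 gene symbol in the platform annotation, 932 had several, 9160 had none listed and 64 were controls. The gene identifiers of 34741 of these were found in RefSeq's table for GRCm38.p6, which gave gene order and promoters, and 0 symbols differed. The probe set with the highest mean stood for each gene. SEs and calls came from limma 3.58.1 under R 4.3.3, with lmFit, eBayes and a genotype term ( Benjamini-Hochberg adjusted p under 0.05 over 18193 genes, two-sided). The SEs of member probe sets are those of a difference of 2 group means. The procedure was tested on simulated data.

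The members and lists were chosen with earlier results of these data known. The lists held 153 entries, of which 137 were measured, and the others are not analysed here. The genes named were every pathway list gene that passed or, where none did, the one with the smallest p, up to 3 that passed from each marker list or otherwise the smallest p (Gap43 among pan-neuronal genes, 0.57, adjusted p = 0.144; Gata2 among inhibitory neuron factors, -0.17, adjusted p = 0.204), and the 3 genes most alike for each member. Other list genes, neighbours and marker values named were chosen after their values were seen.

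Relations between members used deviations from group means and all 576 reorderings within groups. Same-numbered arrays deviated together over all genes (r = 0.131, 0.232, 0.160 and 0.223, each above 0.1), so numbers were taken as pairs from the values, not the labels, in a blocked fit. The pairing is weak, since differently numbered arrays ran from -0.296 to 0.294, and knockout-labelled replicate 3 with wildtype replicate 4 (0.294) and knockout-labelled replicate 4 with wildtype replicate 1 (0.171) were also above 0.1. Alternatives were that block, array weights, a trended robust prior, the mean of probe sets, no shared probe sets, a filter on dim genes, centring, a further quantile step and leaving out each array. A neuron covariate was added after seeing the data.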

Additional observations from a re-analysis of the deposited data

Results flagged for a closer look

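Over the member probe sets, all 58 pathway genes and the other genes named, 246 groups of 4 arrays were examined. In 10 of them 1 array stood far from the other 3, measured as its gap to the nearest array over the range of the group. Chance flags about 1 in 20 groups. Knockout-labelled replicate 2 stood apart in the second probe set of Gad2 (4.56 against 4.13 to 4.19), in Gabrr2, a rho subunit of GABA-A receptors (3.74 against 3.03 to 3.13), in Car2 (11.22 against 10.92 to 10.96) and in Reln, the secreted protein reelin (10.31 against 10.97 to 11.09). It was also the array with the highest neuron list mean, 9.06. Without this array Gabrr2 passed as lower (-0.22, limma adjusted p = 0.0323), but with all arrays it did not (limma adjusted p = 0.824). Its values, 3.03 to 3.74, all lay under 4.33, the lower quartile of all values. Wildtype replicate 3 stood apart in the first probe set of Gabra2 (5.04 against 5.29 to 5.35) and in the second of Gabrb2 (5.85 against 5.35 to 5.38). Wildtype replicate 1 stood apart in Lhfpl4, a partner of GABA-A receptors at synapses (7.42 against 6.70 to 6.82). Wildtype replicate 4 stood apart in Gabrp (6.95 against 6.61 to 6.66), knockout-labelled replicate 1 in Stk39 (10.41 against 10.58 to 10.60) and knockout-labelled replicate 3 in Aldh1a1 (7.02 against 3.51 to 3.80).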

How the results depend on the processing

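With the mean of all probe sets of a gene in place of the brightest one, the differences were 1.16 for Gad1, 0.19 for Abat and 0.45 for Gabrb1, since the dimmer probe sets of these genes differed less. The other member differences moved by less than the spread between replicates in every setting run. With probe sets that can match several transcripts or genes left out, Stk39 was at 0.12 (limma adjusted p = 0.565), where only the dimmest of its 3 probe sets is left. In that setting 8 of 55 pathway genes fell (14.5%), beside 11.2% of all genes, so the distance from the background was smaller than in the full table, and Aldh9a1, Glul and Hap1 had no probe set left. Among genes at or above the median level 9 of 26 fell (34.6%), beside 1817 of 9097 genes in all. When 1 array was left out, the number of pathway genes that rose ran from 1 to 3 and of those that fell from 11 to 13, and the correlation of Gabra4 with Gabrb1 ran from 0.58 without knockout-labelled replicate 2 to 0.98 without knockout-labelled replicate 1. All genes called numbered 3557, and 2653 to 3934 with 1 array left out. With the replicate number as a block 3 pathway genes rose, Gabrg1 being the one gained, and 12 fell, and 3653 genes were called in all, with no other call of a pathway gene changed.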

Other observations

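The neighbours of the GABA-A gene clusters were read beside the members. On chromosome 5 Cox7b2, which lies between Gabra2 and Gabra4, was dim and gave 0.02 (SE 0.07). Of the 3 genes before the cluster 0 passed (limma), Gnpda2 being at -0.11. Of the 3 after it, Commd8 gave 0.03 (SE 0.06) and Corin, the protease that activates natriuretic peptide, rose by 0.40 (SE 0.10, limma adjusted p = 0.0167), with all 4 knockout-labelled arrays, at 7.27 to 7.73, above all 4 wildtype arrays. In the chromosome 11 cluster of Gabrb2, Gabra6 gave -0.06. Of 6 genes flanking that cluster 3 fell and 0 rose, where 11.7% of all genes fell and 7.84% rose (limma, adjusted p under 0.05). Whether genes near the cluster fell more often than others was not tested. Atp10b, a phospholipid flippase, fell by 1.34 (SE 0.14, limma adjusted p = 0.000162). In the chromosome 7 cluster Gabra5 and Gabrg3 each gave -0.07, and the flanking pigment gene Oca2 fell by 0.57 (SE 0.12, limma adjusted p = 0.0108). Nipa1, Herc2, Atp10a and Ube3a, which also flank it, did not pass.

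Gad1os, annotated as an opposite strand transcript of Gad1, read 5.58, 5.77, 5.45 and 5.75 in the knockout-labelled and 5.73, 6.32, 6.17 and 5.82 in the wildtype arrays, a difference of -0.37 that did not pass (limma adjusted p = 0.0930) and ran opposite in sign to that of Gad1. Dlx5, a homeobox gene of forebrain inhibitory neurons and of craniofacial and bone tissue, was at 7.10 in knockout-labelled replicate 3 and at 4.92 to 5.41 in the other 7 arrays.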
